A study of Mus musculus with 2 samples.

Results

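The nuclear genes of oxidative phosphorylation encode most subunits of the 4 respiratory complexes and of ATP synthase (complex V) in the inner membrane of the mitochondrion. They are described here in mouse medullary thymic epithelial cells (mTECs). A gene was a member when its symbol began with Nduf and a letter A, B, C, S or V with a number, was Sdha, Sdhb, Sdhc or Sdhd, or began with Uqcr, Atp5 or one of Cox4 to Cox8 with a letter, and 13 further matches with pseudogene names were left out. This gave 89 of the 55487 genes in the count table, with 38 in complex I, 4 in complex II, 8 in complex III, 21 in complex IV and 18 in complex V. The rule itself uses names and no measured value, but the members were chosen with earlier results of these data known. Ndufa4 and Ndufa4l2 were placed with complex IV, in which the NDUFA4 protein sits. Some names carried by the rule are not ordinary subunits. Cox7a2l is known as a factor for joining complexes III and IV, an activity that RNA counts do not measure. Ndufs6b, Cox6c2, Ndufb4c and Ndufa11b are processed pseudogenes in the GENCODE annotation.

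mTECs are the stromal cells of the thymus medulla that show developing T cells proteins of other tissues. All mice were WT female C57BL/6J animals, 4 weeks old, that received spermidine at 15 mg/kg dissolved in PBS, or PBS only, by intraperitoneal (ip) injection on each of 7 days. CD45+ cells were depleted, and mTEChi cells (high in MHC class II, with the Aire-expressing cells) were sorted along with post-Aire mTEClo cells. The 2 PBS samples (hashtags HT4 and HT5) and the 2 spermidine samples (HT2 and HT3) were hashed into 1 droplet run with 3′ chemistry. The labels do not say that a hashed sample is a separate mouse, and the p-values below therefore rest on the spread between hashed samples alone, which may be technical.

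Complex I (NADH dehydrogenase) and complex II (succinate dehydrogenase) feed electrons into the ubiquinone pool, complexes III and IV pass them by way of cytochrome c to oxygen, and complex V uses the resulting proton gradient to make ATP. Complexes I, III, IV and V are built from nuclear and mitochondrially encoded subunits, whereas every subunit of complex II, which is also an enzyme of the citric acid cycle, is encoded in the nucleus. Several complex IV subunits exist as gene pairs, with 1 widely expressed gene and 1 used in heart and skeletal muscle, in testis or in cells exposed to low oxygen.

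After filtering, 4709 cells belonged to 1 hashed sample, and 4512 of them were mTEC-like, with 17303042 to 24988299 unique molecular identifiers (UMIs, each counting 1 captured RNA molecule) per hashed sample. Cells were clustered without the members and without the mitochondrially encoded genes, and clusters were named from marker lists. The Aire-stage class held 1257 cells, the tuft-like class 1271, the transit-amplifying-like class (proliferating mTECs) 355, and the keratinocyte-, neuroendocrine-, immature mTEC-, microfold- and enterocyte or hepatocyte-like classes between 162 and 328. The ciliated-like class (48 cells) and the muscle-like class (43 cells) were small, with 6 to 22 cells in a sample. In the 3 tuft-like clusters 12 or 13 of 13 tuft markers were over 2-fold above the other cells, in the muscle-like cluster 12 of 12, in the ciliated-like cluster 11 of 11, and in both Aire-stage clusters 6 of 12. A further cluster of 217 cells stayed unnamed. In it 7 of 12 Aire-stage markers were over 2-fold above the other cells, and 4 markers of the cortical epithelial list, which came second. Its 10 leading genes held 0 Aire-stage markers and included the cortical epithelial genes Ccl25 and Tbata.

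Levels are CPM, a gene's UMIs scaled to 1000000 UMIs of a class summed in each hashed sample, so that every class has 4 values. Classes come from the same cells and the same clustering, so differences between classes are given as values with no test, and 2 classes are said not to overlap when all 4 values of one lie above all 4 of the other. In sums over a class, a smaller number of RNA molecules per cell and fewer cells rich in them cannot be told apart.

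Summed over all members, nuclear oxidative phosphorylation RNA was most abundant in the muscle-like, ciliated-like and transit-amplifying-like classes and least abundant in the immature mTEC-like and microfold-like classes. The muscle-like class reached 33491 CPM (29870 to 36954 over the 4 samples) and the ciliated-like class 30089 CPM (26893 to 33062), but the direction of both against the Aire-stage class flips with TMM scaling (log2 ratios of -0.05 and -0.20). The transit-amplifying-like class stood at 29420.0 CPM, with its 4 samples between 29295 and 29620.1 CPM. The Aire-stage class followed the unnamed cluster (28561 CPM) and the enterocyte or hepatocyte-like class (26839 CPM), with 25981, 27199.5, 25439 and 25782 CPM in PBS replicates 1 and 2 and spermidine replicates 1 and 2. Below it came the keratinocyte-like (23633 CPM), neuroendocrine-like (21914 CPM), tuft-like (21826 CPM), immature mTEC-like (20125 CPM) and microfold-like (19611 CPM) classes. Each class overlapped its neighbour in this order except at 1 step, between the Aire-stage and the keratinocyte-like class.

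The depth of the cells moved with these sums: over the 11 classes, mean UMIs per cell and the summed member level had a Pearson r of 0.79 and a Spearman rho of 0.81, as a description of classes that share 1 run. The part of depth in the class differences was not tested. Expressed as a share of all UMIs, the members took 2.61% in the Aire-stage class (2.54% to 2.72%), with 20145 UMIs per cell, and 2.18% in the tuft-like class (2.03% to 2.30%), with 14593 UMIs per cell.

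**Figure D1:**
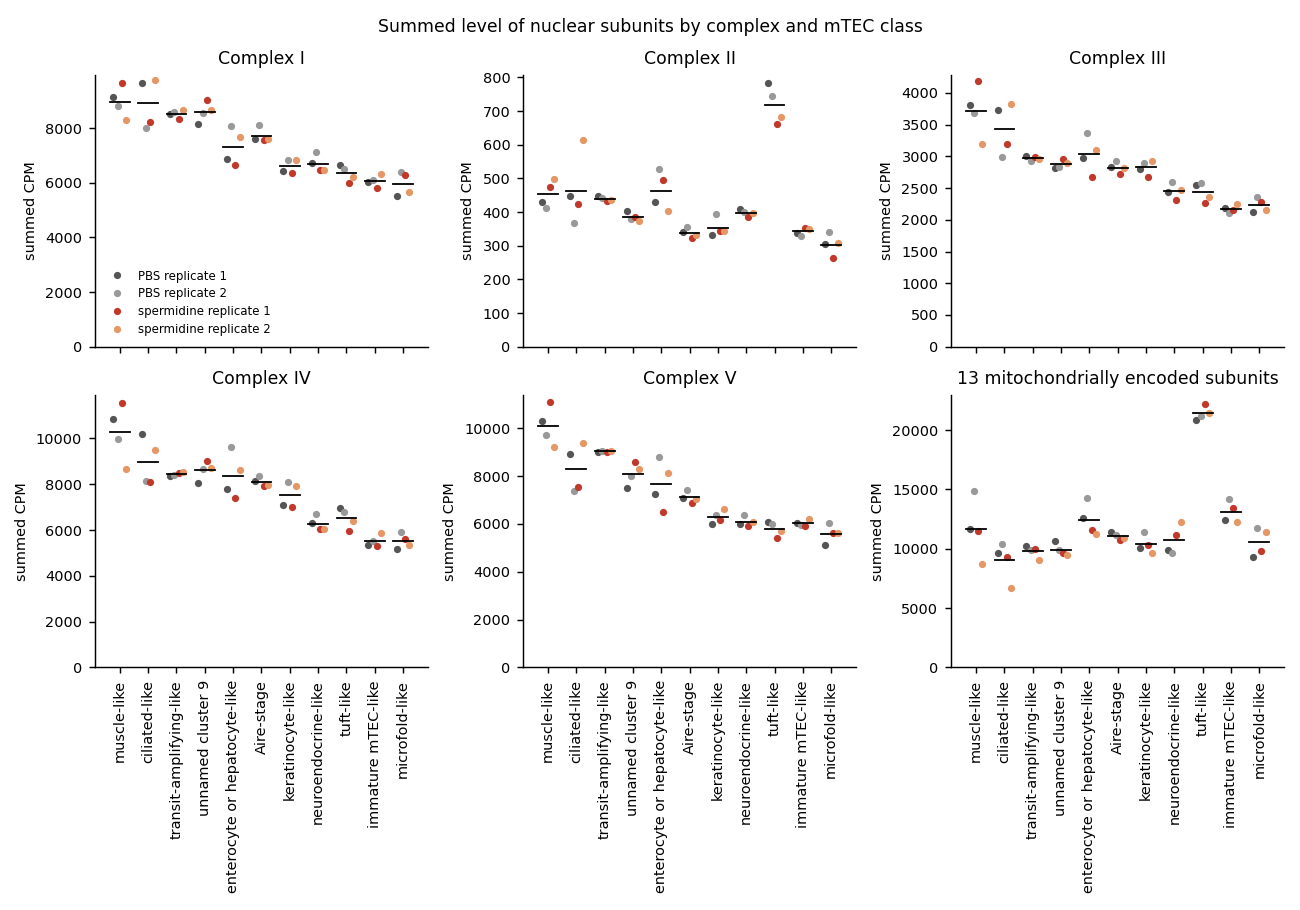
Summed CPM (y axis, linear, from 0) of the members of complexes I to V and of the 13 mitochondrially encoded subunits in 11 mTEC classes (x axis, ordered by the sum over all members). Points are the 4 hashed samples and bars their means. Complexes I, III, IV and V tend to fall from left to right, complex II and the mitochondrially encoded subunits stand highest in the tuft-like class, and the high muscle-like and ciliated-like sums over all members turn lower than the Aire-stage sum under TMM scaling.

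The 5 complexes did not share 1 order of classes. Complexes I, III, IV and V broadly followed the order of the total, whereas complex II had its maximum in the tuft-like class. Complex II summed to 718 CPM in tuft-like cells (662 to 783), above the enterocyte or hepatocyte-like class at 464 CPM (402 to 529) with no overlap, to 338 CPM in the Aire-stage class and to 304 CPM in the microfold-like class, the lowest. It made up 3.29% of all member UMIs in tuft-like cells (3.20% to 3.40%) and 1.29% in Aire-stage cells. For complex V the muscle-like class (10082 CPM) lay above the transit-amplifying-like class (9028 CPM) with no overlap on the CPM scale, the scale on which the muscle-like total is high but flips with TMM scaling.

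The mitochondrially encoded subunits, which are transcribed from mitochondrial DNA, ran in another order. Their sum was 21421 CPM in tuft-like cells (20860.2 to 22164 CPM), 13079 CPM in the immature mTEC-like class, 11046 CPM in the Aire-stage class (10758 to 11404) and 9012 CPM in the ciliated-like class. Only the step from the tuft-like class to the next was free of overlap. The ratio of mitochondrially encoded to nuclear UMIs was 0.906 and 0.939 in tuft-like cells after PBS and 1.09 and 1.004 after spermidine, against 0.439, 0.410, 0.423 and 0.422 in the Aire-stage class. The 2 classes did not overlap in this ratio. The levels of single genes followed. mt-Nd1, a complex I core subunit, averaged 2902 against 1568 CPM, mt-Cytb of complex III 8764 against 4770.2 CPM, mt-Co1, the catalytic subunit of complex IV, 1687 against 713 CPM, and mt-Atp6 of complex V 403 against 213 CPM. The median percentage of mitochondrial UMIs per cell, which was also a filter on cells, was 5.32% to 6.01% in tuft-like and 2.02% to 2.15% in Aire-stage samples. Over the 44 class and sample sums, the nuclear total and the mitochondrially encoded total had a Pearson r of -0.35 and a Spearman rho of -0.35. Over the 11 classes, mean UMIs per cell and the mitochondrially encoded sum had a Pearson r of -0.48 and a Spearman rho of -0.72, as a description. The sums share 4 samples and a common denominator, in which more of the one leaves less for the other.

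Against the Aire-stage class, members were mostly lower in tuft-like cells while genes in general leaned the other way. Of 75 members with at least 20 CPM as the mean of both classes, 45 were lower with no overlap, 6 were higher with no overlap and 24 overlapped. Over all 7648 genes at that level 33% were lower and 45.1% higher with no overlap. The members' median log2 ratio, on the log2(CPM + 1) scale, was -0.22, beside 0.17 over all genes. Complex IV had 8 of 12 members lower and 0 higher (median -0.37), complex V 12 of 16 lower and 0 higher (median -0.24), complex III 5 of 8 lower and 1 higher (median -0.36), complex I 19 of 35 lower and 4 higher (median -0.17), and complex II 1 lower and 1 higher of 4. The 12 mitochondrially encoded subunits at that level were all higher, with a median of 0.97.

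Sdha was the member that set tuft-like cells apart in complex II. It encodes the flavoprotein that oxidises succinate, and the gene lies at chr13:74322254-74350280 on the minus strand. Its level in tuft-like cells was 534 and 519 CPM after PBS and 442 and 457 CPM after spermidine, a mean of 488 ± 45.3 CPM (SD, n = 4) from 9233 UMIs. In Aire-stage cells it was 95.3, 106, 80.5 and 90.6 CPM, a mean of 93.2 ± 10.7 CPM. Every tuft-like sample lay above every sample of the other 10 classes, of which the neuroendocrine-like class (140.5 CPM) came next. The log2 ratio of tuft-like over Aire-stage was 2.38, and the difference stood in each tuft-like cluster, at means of 659, 402 and 379 CPM, against 80.6 to 142 CPM in all other clusters.

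The other subunits of the same enzyme did not share this level. Sdhb, the iron-sulfur subunit, stood at 121, 102, 102 and 103 CPM in tuft-like and at 112, 114, 112 and 111 CPM in Aire-stage samples, so that the classes overlapped. Sdhc, a membrane anchor, averaged 67.5 CPM against 66.8 CPM. Sdhd, the other anchor, was lower in tuft-like cells, at 57.4, 58.1, 53.3 and 53.9 CPM against 66.4, 66.1, 67.3 and 63.1 CPM. Sdhd was instead higher in the transit-amplifying-like class, at 125, 124, 119 and 111 CPM. In the ciliated-like class it averaged 153 CPM, from uneven samples at 139, 97.4, 110 and 264 CPM, the last of 7 cells. Among the assembly factors of complex II, Sdhaf1, which serves the iron-sulfur subunit, averaged 53.7 CPM in tuft-like and 182 CPM in Aire-stage cells, and Sdhaf4, which serves the flavoprotein, had the higher mean in tuft-like cells, at 59.7 CPM.

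**Figure D2:**
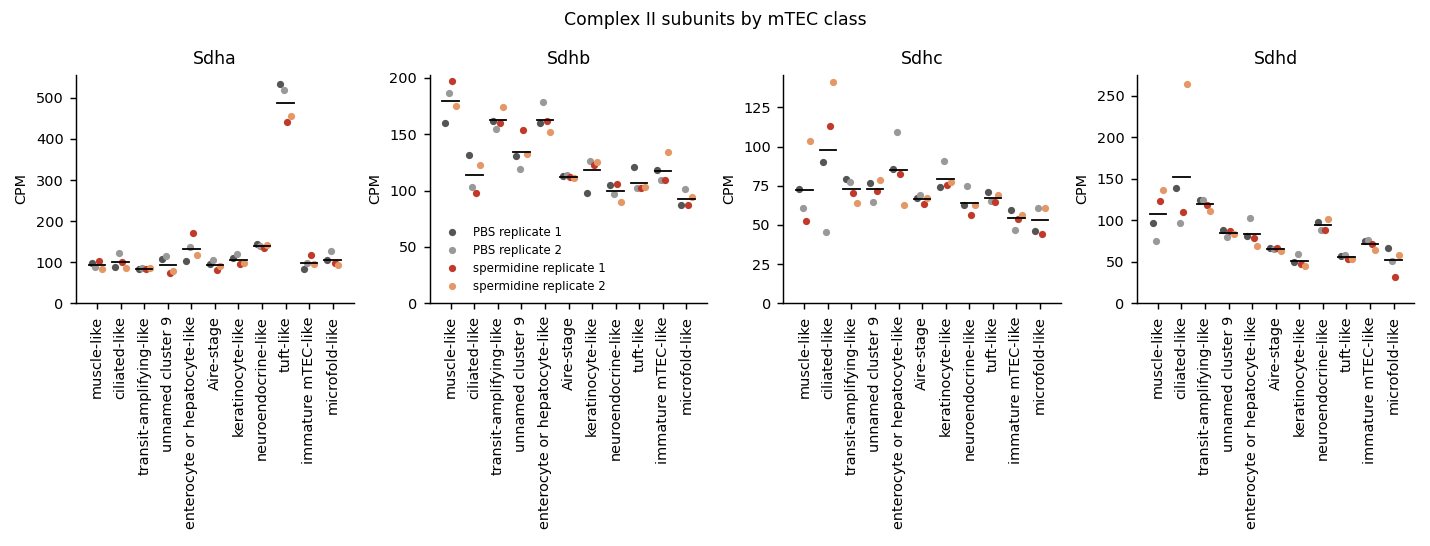
CPM (y axes, linear, from 0, a separate scale per panel) of the complex II subunits Sdha, Sdhb, Sdhc and Sdhd in 11 mTEC classes (x axis). Points are the 4 hashed samples and bars their means. Sdha lies between 442 and 534 CPM in tuft-like cells and at a mean of at most 140.5 CPM elsewhere, whereas Sdhb, Sdhc and Sdhd have no tuft-like maximum.

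Because Sdha and Sdhb encode partners in 1 enzyme and differed in this way, the bases directly upstream of each gene's annotated start are printed here, from RefSeq, build GRCm38.p6, read 5′ to 3′ on the strand of the gene. The Sdha window is chr13:74350281-74350480 (minus strand) and the Sdhb window chr4:140961021-140961202 (plus strand). Capitals mark matches to the motifs searched on both strands.
Sdha: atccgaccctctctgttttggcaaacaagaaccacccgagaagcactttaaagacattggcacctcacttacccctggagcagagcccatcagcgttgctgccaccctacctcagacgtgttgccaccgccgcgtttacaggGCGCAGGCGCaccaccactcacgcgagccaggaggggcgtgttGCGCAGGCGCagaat
Sdhb: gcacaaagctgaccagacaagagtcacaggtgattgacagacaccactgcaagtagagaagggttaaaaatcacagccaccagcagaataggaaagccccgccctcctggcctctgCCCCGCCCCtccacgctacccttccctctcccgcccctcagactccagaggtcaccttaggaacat
The Sdha window held 2 matches to a pair of GCGC half-sites of NRF1 with any 2 bases between them. NRF1 is a factor known for many nuclear genes of respiration. The Sdhb window held 1 match to the Sp1 GC box (GGGGCGGGG). G and C made up 60% of the Sdha window, with 14 CpG dinucleotides, and 57.1% of the Sdhb window, with 4.

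For the members as a set, 69 of the 89 matched a RefSeq window, giving 68 different windows of 250 bases upstream of the start. The spaced NRF1 pair stood in 13 of them (19.1%), beside 5.09% of 27025 windows of all genes, and the full NRF1 palindrome, the same pair with AT in between, in 4 (5.88%, beside 0.781%). Besides Sdha, the spaced pair stood upstream of Sdhd, Ndufa5, Ndufa8, Ndufa11, Ndufb4, Ndufs5, Ndufs6, Ndufv2, Cox6a1, Atp5g2, Atp5h and Atp5k. The ETS site CCGGAAG, which GABP binds, stood in 11 windows (16.2%, beside 7.05%). The Sp1 box stood in 13.2% (beside 10.5%), the E-box CAGCTG in 8.82% (beside 12.8%), TATAAA in 10.3% (beside 13%), and a long form of the YY1 motif and the RFX X-box in 0 (beside 0.218% and 0.111%). Such matches describe the letters only, and are neither binding sites nor causes of a level.

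In complex I, Ndufc2, an accessory subunit of the membrane arm, had the widest spread over classes among complex I members of at least 20 CPM, with a highest-to-lowest ratio of 4.33. It stood at 899, 996, 980.2 and 903 CPM in the Aire-stage samples (945 ± 50.9, SD, n = 4). In the tuft-like samples it stood at 273, 278, 218 and 266 CPM (259 ± 27.7) and in the immature mTEC-like samples at 262, 242, 233 and 268 CPM (251 ± 16.7). The tuft-like and the immature mTEC-like samples overlapped each other and lay below every Aire-stage sample. The transit-amplifying-like class (638 CPM) lay between and the unnamed cluster (1089.6 CPM) above. Ndufb5, another membrane-arm subunit, ranged by 4.25-fold, from 120.3 CPM in the microfold-like to 512 CPM in the ciliated-like class.

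The core subunits of complex I, which carry the flavin and the iron-sulfur clusters, were split between tuft-like and Aire-stage cells. Ndufs1, the large iron-sulfur subunit, was higher in tuft-like cells, at 64.5, 55.0, 59.6 and 59.5 CPM against 35.7, 41.4, 36.3 and 40.4 CPM. Ndufs7, which lies near the quinone site, was higher as well (213 against 164 CPM), as were the accessory subunits Ndufa9 and Ndufv3 (log2 ratios of 0.55 and 0.39). Ndufv2 (120.3 against 179.7 CPM) was lower, and Ndufv1, which binds NADH, overlapped at 63.0 against 64.1 CPM.

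In complex III, Uqcrq, a small subunit that sits with cytochrome b, had the widest ratio, 3.35. It stood at 1228, 904, 1005 and 1338 CPM in the ciliated-like samples, which hold 22, 8, 11 and 7 cells, and at means of 334 to 538 CPM in the 10 other classes. Uqcrfs1, the Rieske iron-sulfur protein, stood at 92.1, 89.0, 77.4 and 78.1 CPM in tuft-like and at 153, 152, 145 and 143 CPM in Aire-stage samples, with no overlap. Uqcrc1, a core protein, averaged 87.6 against 111 CPM. Uqcr10, an accessory subunit, was its 1 member higher in tuft-like cells (log2 ratio 0.24).

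In complex IV, Cox4i1, a regulatory subunit, stood at 1068, 1092, 996 and 1029.8 CPM in the Aire-stage samples and at 557, 585, 586 and 573 CPM in the immature mTEC-like samples. Tuft-like cells had a mean of 620 CPM (log2 ratio -0.75). Cox5a averaged 335 CPM in tuft-like and 439 CPM in Aire-stage cells. Ndufa4 averaged 382 CPM in tuft-like, 704 CPM in Aire-stage and 299.7 CPM in microfold-like cells, and was highest in the keratinocyte-like class, at 1295, 1649.8, 1010.1 and 1552 CPM.

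In complex V, Atp5b, the catalytic beta subunit, was nearly the same in the 4 transit-amplifying-like samples, at 939.7, 941, 936 and 937 CPM, and stood at 555, 556, 564 and 541 CPM in the Aire-stage samples. Atp5a1, the alpha subunit, averaged 603 against 408 CPM, with no overlap. Atp5g2 is 1 of 3 genes that encode the same mature c subunit of the rotor ring. Among complex V members with a mean of at least 20 CPM over the classes it had the widest ratio, 3.32. It stood at 41.3, 52.4, 42.7 and 44.6 CPM in the transit-amplifying-like samples, at a mean of 21.0 CPM in Aire-stage cells, and at 13.6 CPM, from 35 UMIs, in the enterocyte or hepatocyte-like class. Atp5o appears under 2 gene identifiers whose positions overlap, so its reads may be divided between them.

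Transit-amplifying-like cells had a larger share of member RNA than Aire-stage cells. Of 76 members, 49 were higher with no overlap and 5 lower, against 32.9% higher and 32.6% lower over 7243 genes, and the median log2 ratio was 0.24 beside -0.02 over all genes. Complex V had 15 of 17 higher and 0 lower (median 0.32), complex I 21 of 35 higher and 3 lower, complex III 6 of 8 higher and 1 lower, complex IV 5 of 12 higher and 1 lower, and complex II 2 of 4 higher. The largest log2 ratios were those of Atp5g2 (1.08), Sdhd (0.86), Atp5b (0.76) and Ndufa12 (0.76), an accessory subunit of the peripheral arm of complex I. The 5 lower members were Ndufc2 (-0.56), Uqcrh (-0.35), Ndufa1 (-0.32), Cox8a (-0.22) and Ndufa6 (-0.14). The mitochondrially encoded subunits did not follow, with 0 higher and 5 lower of 12 (median -0.13). Among related lists, 10 of 12 genes of the electron carrier and nucleotide exchange list were higher with no overlap and 0 lower. The citric acid cycle list had 10 of 16 higher and 4 lower, and glycolysis 8 of 12 higher and 2 lower. The assembly factors of complex I had 4 of 7 higher and 1 lower, and those of complexes II to V 6 of 17 higher and 3 lower. The regulators of mitochondrial biogenesis had 3 of 4 higher and 0 lower.

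Immature mTEC-like cells, known as a stage before the Aire stage, had a smaller share of member RNA than Aire-stage cells. Of 76 members 44 were lower than in the Aire-stage class with no overlap and 2 were higher, beside 25.1% lower and 40.1% higher over 7725 genes, with a median of -0.28 (0.21 over all genes). Complex IV had 11 of 12 lower (median -0.46). Its subunit Cox6a1 averaged 150 against 279 CPM. The 2 higher members were Ndufa11 (log2 ratio 0.44) and Ndufs1 (0.22). The copper chaperone of complex IV, Cox17, had a log2 ratio of -1.33. The mitochondrially encoded subunits were higher for 9 of 12 (median 0.25) on the CPM scale, and their sum flips to a log2 ratio of -0.05 with TMM scaling.

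The microfold-like class, named for cells that take up antigen in the gut lining, was lower than the Aire-stage class for 54 of 75 members with no overlap and higher for 0, beside 33.8% lower and 22% higher over 7093 genes. Its median log2 ratio was -0.39 beside -0.16 over all genes, and 11 of 12 members of complex IV and 13 of 16 of complex V were lower. Ndufa4 (-1.23), Cox7a2l (-1.05) and Cox4i1 (-0.80) had the lowest ratios. Unlike in tuft-like cells, the 12 mitochondrially encoded subunits were split, with 1 higher, 1 lower and 10 that overlapped.

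Among the classes compared, the 2 smallest were those whose summed level changed direction with TMM scaling, so their counts are given on the CPM scale only. In the muscle-like class 46 of 79 members were higher than in the Aire-stage class with no overlap and 2 lower, beside 30.4% higher and 22.7% lower over 7618 genes, with a median of 0.49 (0.16 over all genes). Complex V had 14 of 16 higher. Among the higher were Ndufa10 (log2 ratio 0.92), Uqcrfs1 (0.84), Atp5c1 (0.79), the gamma subunit in the stalk of ATP synthase, and Ndufs1 (0.76). The 2 lower were Ndufc2 (-1.39) and Cox4i1 (-0.31).

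In the ciliated-like class 27 of 77 members were higher with no overlap and 8 lower, beside 34.9% higher and 23.1% lower over 8228 genes, with a median of 0.15 (0.16 over all genes), so the members' share and median were near those of all genes on this scale. Single members stood further apart: Ndufb5 had a log2 ratio of 1.35, Atp5g1 of 1.18 (729 against 316 CPM), Ndufs5 of 1.09, Sdhd of 1.09 and Uqcrq of 1.07. The complex I assembly factors had 6 of 9 higher, among them Ndufaf3 (552 against 70.1 CPM).

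**Figure D3:**
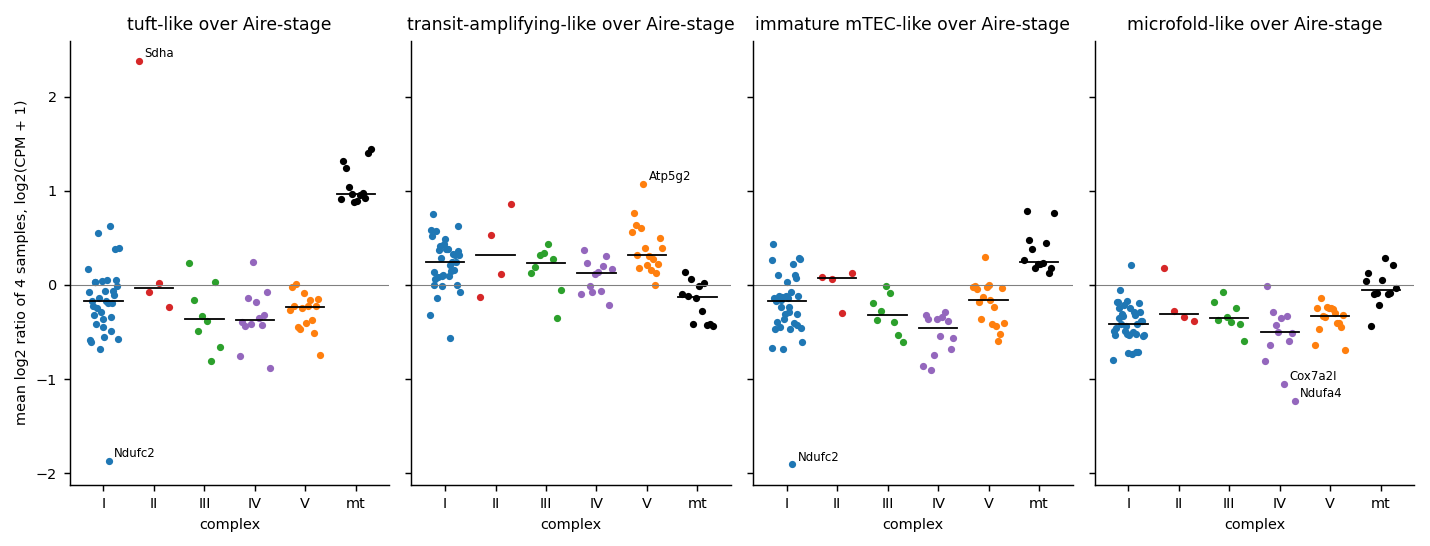
Mean over 4 hashed samples of the log2 ratio, on the log2(CPM + 1) scale (y axis), of a class over the Aire-stage class for members with at least 20 CPM as the mean of both classes, by complex, and for the mitochondrially encoded subunits (mt, black). Each point is a gene and each bar a median. Tuft-like members lie mostly below 0 except Sdha at 2.38, transit-amplifying-like members mostly above 0, and Ndufc2 is the lowest point in the tuft-like and immature mTEC-like panels.

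The genes whose level was most like the members' sum over the 44 class and sample sums were, among 8001 compared, Timm17a (Pearson r of 0.87), Ndufab1 (0.85), Micos10 (0.83), Mrps21 (0.83), Ndufb1-ps (0.83), Ncbp2 (0.82), Mdh2 (0.81), Srp9 (0.80), Tomm22 (0.80) and Cox14 (0.80). Timm17a and Tomm22 encode parts of the mitochondrial import machinery, Mrps21 a mitochondrial ribosomal protein and Mdh2 an enzyme of the citric acid cycle. Ndufab1 encodes the acyl carrier protein of complex I, whose name the member rule did not match. The sums share 4 samples and 1 run, and the coefficients are a description.

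Among the mTEC classes, the muscle isoforms of complex IV had their highest means in the muscle-like class, and the testis form Cox6b2 in the ciliated-like class. Cox8b, the muscle form of subunit 8, stood at 189, 79.0, 109 and 77.8 CPM in the muscle-like samples (114 ± 52.3, SD, n = 4), with 143 UMIs in 20 of 43 cells (46.5%) at a median depth of 26428 UMIs per cell. In tuft-like cells it had 5 UMIs in 5 of 1271 cells (0.393%) at a median of 12731 UMIs. Its share of the Cox8a and Cox8b UMIs together was 6.46% in the muscle-like class, so the widely expressed Cox8a still made up most of the pair. Aire-stage cells held 393 Cox8b UMIs in 37 of 1257 cells (2.94%) at a median of 20524 UMIs, 62 of them in a single cell.

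The other muscle forms were more uneven. Cox6a2 stood at 48.5, 7.18, 31.7 and 117 CPM in the muscle-like samples, from 49 UMIs in 6 cells, or 14.5% of the Cox6a1 and Cox6a2 UMIs. Aire-stage cells held 298 Cox6a2 UMIs in 73 cells (5.81%), and tuft-like cells 3 UMIs. Outside the mTEC classes, myeloid-like cells held 70 Cox6a2 UMIs, or 17.5% of the pair, a larger share than in the muscle-like class. That share was 45.1% in PBS replicate 2, 1.32% in PBS replicate 1 and 0% in both spermidine samples. Cox7a1 stood at 14.6, 46.7, 56.4 and 6.48 CPM in the muscle-like samples, from 36 UMIs in 16 cells, and at means of 9.90 CPM in Aire-stage and 8.24 CPM in tuft-like cells. Ndufa4l2, a relative of Ndufa4 known to be induced in low oxygen, stood at 2.43, 53.8, 119.8 and 45.4 CPM in the muscle-like samples, from 57 UMIs in 11 cells. The muscle-like samples of Cox6a2, Cox7a1 and Ndufa4l2 ran into the range of other classes at their low end.

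Cox6b2, the testis form of subunit 6B, was high in the ciliated-like class. It stood at 231, 262, 227 and 170.0 CPM there, a mean of 222 ± 38.2 CPM, with 369 UMIs in 28 of 48 cells (58.3%) at a median of 33585 UMIs per cell, 47 of them in 1 cell. Its highest class mean was 122 times its lowest (1.82 CPM in the immature mTEC-like class, from 9 UMIs). Cox6a2 had a wider ratio, 240, at a mean of 7.22 CPM over the classes. The mean of Cox6b2 over the classes, 28.6 CPM, passed the limit of 20 CPM through the ciliated-like class. Cox6b2 made up 23.3% of the Cox6b1 and Cox6b2 UMIs in the ciliated-like class. Tuft-like cells held 35 UMIs in 24 cells (1.89%), and the Aire-stage mean was 14.7 CPM. Every sample of the other classes lay below the lowest ciliated-like sample. The other testis forms were scarce: Cox7b2 had 64 UMIs in all mTEC-like cells, 50 of them in Aire-stage cells, and Cox8c had 4.

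Cox4i2, the low-oxygen form of subunit 4, was found mostly in the Aire-stage class, which held 321 of its 368 UMIs, in 74 cells (5.89%), with 38 in 1 cell. Its Aire-stage samples stood at 12.1, 5.33, 18.5 and 9.58 CPM. Tuft-like cells had 6 UMIs in all. A UMI of Cox8b, Cox6a2, Cox4i2 or Cox7b2 was thus found in 1.35% to 5.89% of Aire-stage cells, at a median of 20524 UMIs per cell. In tuft-like cells, at a median of 12731 UMIs, the shares were 0.393%, 0.236%, 0.472% and 0.315% in the same order. The part of free RNA in these shares was not tested. By level, Cox6b2 was also lower in tuft-like cells (1.88 against 14.7 CPM). Cox7a1 (8.24 against 9.90 CPM) and Ndufa4l2 (3.13 against 2.47 CPM) overlapped between the 2 classes. In the unnamed cluster Cox6a2 made up 3.19% and Cox8b 0.92% of their pairs, against 4.04% and 1.21% in Aire-stage cells. For Cox4i2 and Cox7b2 these were 0.34% and 0.055%, against 1.20% and 0.57%.

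**Figure D4:**
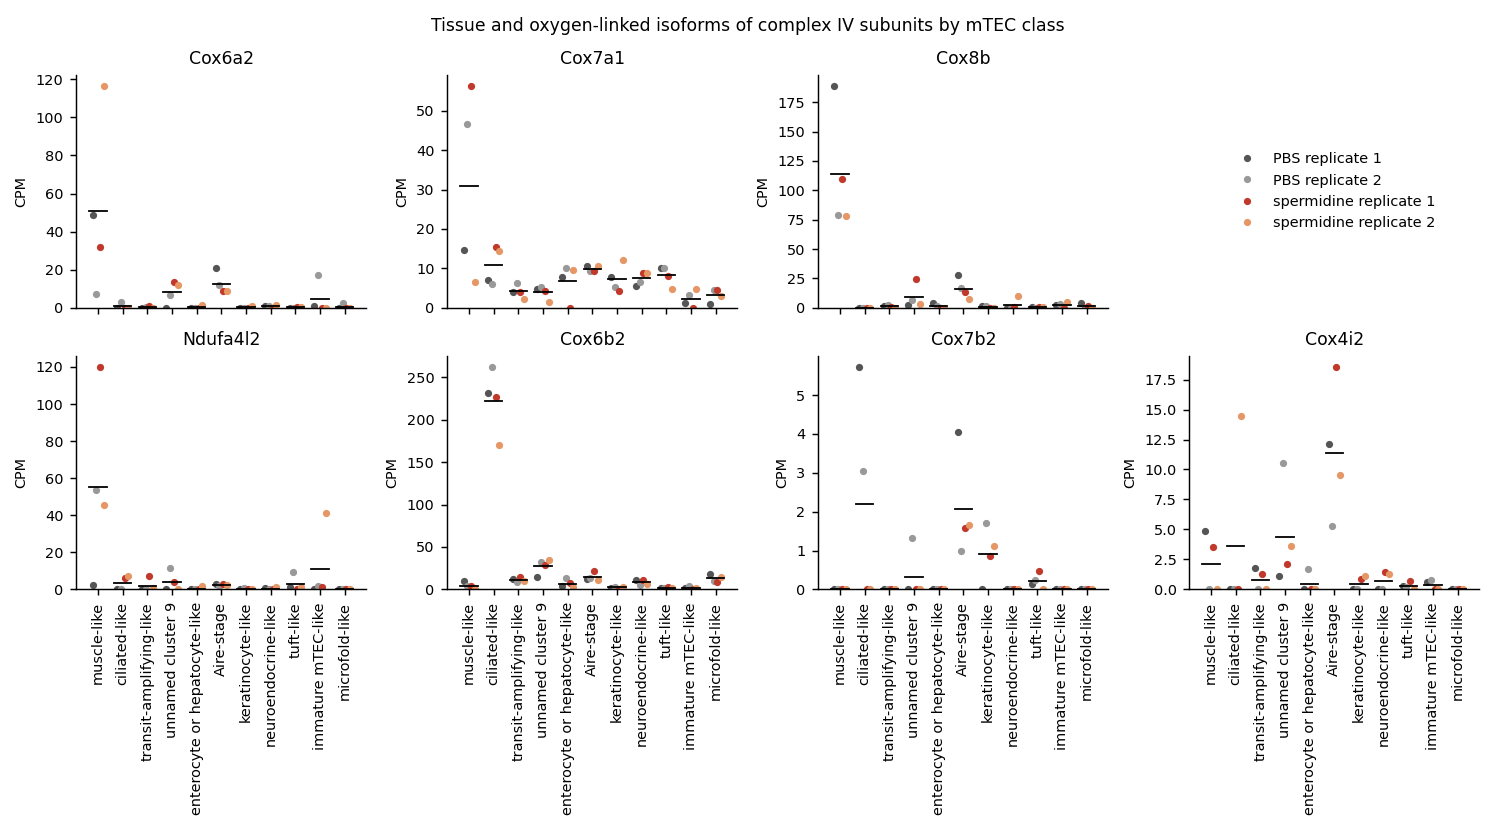
CPM (y axes, linear, a separate scale per panel) of 7 tissue-linked or oxygen-linked complex IV genes in 11 mTEC classes (x axis). Points are the 4 hashed samples and bars their means. Cox8b, Cox6a2, Cox7a1 and Ndufa4l2 have their highest means in the muscle-like class, Cox6b2 in the ciliated-like class and Cox4i2 in the Aire-stage class.

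Because these pairs differ in where they are used, the upstream bases of Cox8a (chr19:7217617-7217816, minus strand), Cox8b (chr7:140900447-140900646, minus strand), Cox6b1 (chr7:30626152-30626351, minus strand) and Cox6b2 (chr7:4753095-4753294, minus strand) are printed from the same RefSeq build, with motif matches in capitals.
Cox8a: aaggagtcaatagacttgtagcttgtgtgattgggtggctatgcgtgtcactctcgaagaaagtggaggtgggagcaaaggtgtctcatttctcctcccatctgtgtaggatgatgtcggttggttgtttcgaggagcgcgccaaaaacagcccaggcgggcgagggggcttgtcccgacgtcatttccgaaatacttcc
Cox8b: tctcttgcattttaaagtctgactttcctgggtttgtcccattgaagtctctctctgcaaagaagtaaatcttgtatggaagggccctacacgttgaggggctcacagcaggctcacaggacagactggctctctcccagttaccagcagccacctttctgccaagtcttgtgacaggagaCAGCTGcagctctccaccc
Cox6b1: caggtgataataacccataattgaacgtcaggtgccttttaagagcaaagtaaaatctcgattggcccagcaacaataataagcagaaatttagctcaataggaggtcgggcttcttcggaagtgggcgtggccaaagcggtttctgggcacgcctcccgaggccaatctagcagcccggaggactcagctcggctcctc
Cox6b2: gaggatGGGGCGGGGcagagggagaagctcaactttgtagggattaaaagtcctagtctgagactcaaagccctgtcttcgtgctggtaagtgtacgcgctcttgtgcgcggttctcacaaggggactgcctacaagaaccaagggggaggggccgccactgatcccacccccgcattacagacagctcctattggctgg
Cox8b held 1 match to the E-box CAGCTG that muscle factors can bind and 1 CpG dinucleotide, beside 11 in Cox8a, which held none of the motifs. Cox6b2 held 1 Sp1 box and 8 CpG dinucleotides, and Cox6b1 none of the motifs within these bases and 10 CpG dinucleotides. A match to the ETS site CCGGAAG lay in the part of the longer Cox6b1 window that is not printed. The E-box stood in 12.8% of all windows and the Sp1 box in 10.5%.

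Spermidine was compared with PBS on the summed counts of each class with edgeR's quasi-likelihood test and Benjamini-Hochberg adjustment over all genes. With 2 samples against 2, an exact permutation test of a single value could not go below p = 0.333. Levels in this comparison are CPM scaled by TMM within the class, and fold changes are spermidine over PBS.

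No member passed an adjusted p of 0.05 in any class fitted. In all mTEC-like cells together 86 members were tested and 0 were called, beside 0% of 22538 genes, and 3 members had an unadjusted p under 0.05, beside 17.8% of all genes. DESeq2 called 1 member, Sdha (adjusted p = 0.000506), and 784 genes. Sdha stood at 228 and 209 CPM after PBS and at 153 and 163 CPM after spermidine, so that the groups did not overlap. Such a lack of overlap was common in the pooled cells. Both spermidine samples lay below both PBS samples for 10 members, beside 5804 of 22538 genes. They lay above both for 38 members, beside 5870 of all genes. The log2 fold change of Sdha was -0.47 (SE 0.08, edgeR adjusted p = 0.126). Cox4i2 (log2 fold change 1.19, edgeR adjusted p = 0.218) and Atp5g2 (0.27, adjusted p = 0.221) were the other 2. Of the members tested 67 had a fold change above 0 and 19 below, with a median of 0.06 beside 0.00 over all genes. Without PBS replicate 1 the median was 0.0069.

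The makeup of the pooled cells also differed between the PBS and the spermidine samples, given as values with no test. Tuft-like cells, in which Sdha is high and most members are low, were 35.2% and 28.9% of mTEC-like cells after PBS and 24.1% and 23.3% after spermidine. Aire-stage cells were 19.8% and 26.7%, against 33.6% and 32.2%, and transit-amplifying-like cells 5.03% and 6.30%, against 10.3% and 10.0%. Complex II made up 2.05% and 1.85% of member UMIs with PBS, and 1.66% and 1.69% with spermidine. Ndufc2, low in tuft-like cells, had a log2 fold change of 0.26 in the pooled cells (edgeR adjusted p = 0.317), while it was below 0 in each of the 8 classes fitted, from -0.24 to -0.01. Cox6c, Ndufa5 and Ndufs7 were likewise below 0 in 8 of 8 classes, none with an adjusted p under 0.05. The 8 classes share the 4 samples and are not separate observations, and no share over all genes is given for this count. The part of the makeup in the pooled values was not tested.

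In tuft-like cells the members leaned to lower levels after spermidine. Of 80 members tested, 0 were called by edgeR, beside 0.0717% of 13956 genes, and DESeq2 also called 0 members. An unadjusted p under 0.05 was reached by 14 members, all lower, beside 9.85% of all genes in either direction. Both spermidine samples lay below both PBS samples for 54 members, beside 20.6% of all genes, and 72 had a fold change below 0, with a median of -0.11 beside 0.00 over all genes. By complex, 31 of 36 members of complex I, 4 of 4 of complex II, 8 of 8 of complex III, 12 of 14 of complex IV and 17 of 18 of complex V were below 0. The members share the 4 samples and are not independent of each other.

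Atp5g1, another gene of the c subunit, stood at 251 and 252 CPM in the PBS and at 206 and 215 CPM in the spermidine tuft-like samples. Its log2 fold change was -0.26 (SE 0.07, edgeR adjusted p = 0.225). Sdha stood at 534 and 520.4 against 446 and 464 CPM (log2 fold change -0.21, edgeR adjusted p = 0.306). Cox8a stood at 1330.3 and 1271 against 1064 and 1168 CPM (-0.22, edgeR adjusted p = 0.322). None of these 3 genes overlapped between treatments. Ndufa4, Cox7c, Uqcrh, Uqcrfs1 and Atp5j2 were among the others with an unadjusted p under 0.05. The members above 0 with the smallest p were Atp5g2 (0.11), Ndufa10 (0.05) and Ndufv1 (0.05), each with an adjusted p above 0.89.

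Among the related lists in tuft-like cells, the mitochondrially encoded subunits had a fold change above 0 for 12 of 13 genes (median 0.06), and 0 were called. The list of electron carrier and nucleotide exchange genes was below 0 for 10 of 12 (median -0.16), 6 with an unadjusted p under 0.05, among them the outer membrane channels Vdac1, Vdac2 and Vdac3 and the ATP/ADP carriers Slc25a4 and Slc25a5. Citric acid cycle genes were below 0 for 13 of 16 (median -0.07) and glycolysis genes for 11 of 13 (median -0.08). UMIs per tuft-like cell were 15196 and 14882 after PBS and 13694 and 14599 after spermidine, and the median mitochondrial share was 5.32% and 5.37% against 6.01% and 5.42%. Their part in the lower member levels was not tested. The lean was present in each tuft-like cluster on the CPM scale without TMM scaling, with 70, 65 and 60 of 75 members at 20 CPM below 0.

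In Aire-stage cells the lean was smaller. Of 84 members tested 0 were called by edgeR, beside 0% of 18342 genes, and DESeq2 called 0 members and 70 genes. The 2 members with an unadjusted p under 0.05, beside 6.49% of all genes, were Cox8b and Cox6a2, the muscle forms. Cox8b stood at 27.5 and 17.2 CPM in the PBS and at 13.4 and 7.44 CPM in the spermidine samples (log2 fold change -1.09, edgeR adjusted p = 0.754), and Cox6a2 at 20.9 and 12.0 against 8.81 and 8.60 CPM (-0.91, edgeR adjusted p = 0.757). Both rest on a few cells rich in them. A fold change below 0 was seen for 72 members and above 0 for 12, with a median of -0.05 beside -0.00 over all genes. Both spermidine samples lay below both PBS samples for 34 members, beside 18.1% of all genes. The 11 subunits of the core list, which holds Uqcrc1, Cox4i1 and Cox5a besides catalytic subunits, were all below 0, with a median of -0.07.

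This lean was not the same in both Aire-stage clusters. In the first, 67 of 76 members at 20 CPM were below 0 (median -0.07), and in the second 34 of 78 (median 0.02). The first cluster, whose member sum was the higher, made up 61.6% and 59.7% of Aire-stage cells in the PBS and 46.2% and 51.5% in the spermidine samples. The part of this makeup in the Aire-stage values was not tested.

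In the related lists of Aire-stage cells 0 genes were called, and the mitochondrially encoded subunits were below 0 for 8 of 13. Among the 2 genes with the smallest p in each list were Ndufaf5, a complex I assembly factor (log2 fold change 0.62, edgeR adjusted p = 0.767), the copper chaperone Cox17 (-0.15, adjusted p = 0.801) and Tfam, which packages mitochondrial DNA (-0.24, adjusted p = 0.870).

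In the other classes fitted the members were also without a call by edgeR or DESeq2. The transit-amplifying-like class had 78 tested (0.0343% of 11662 genes called), 1 at an unadjusted p under 0.05, as were 697 of all genes, and a median of -0.00, with 39 above and 39 below 0. The immature mTEC-like class had 76 tested (0% of 10256 genes called), 1 at an unadjusted p under 0.05, as were 620 of all genes, and a median of 0.04. The keratinocyte-like class (76 tested, 0% of 10817 called), the neuroendocrine-like class (78 tested, 0% of 11381 called) and the microfold-like class (77 tested, 0.0115% of 8677 called) had 0 members at an unadjusted p under 0.05, beside 620, 541 and 386 of all genes, with medians of 0.00, -0.06 and -0.02. In the neuroendocrine-like class 59 of the 78 members were below 0. Both spermidine samples lay below both PBS samples for 23 members, beside 1936 of 11381 genes. They lay above both for 7 members, beside 1928 of all genes. The enterocyte or hepatocyte-like class had 75 tested (0.0623% of 8031 genes called), 0 at an unadjusted p under 0.05, beside 401 of all genes, and 59 below 0, with a median of -0.15 that was 0.01 without PBS replicate 2.

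Whether the response differed between Aire-stage and tuft-like cells was tested with an interaction term. Of 85 members 0 were called by edgeR, beside 0% of 19044 genes, and DESeq2 called 0 members. An unadjusted p under 0.05 was reached by 1091 of all genes and by 2 members, Cox6a2 and Ndufa4 (log2 difference of 0.32, Aire-stage minus tuft-like). The median difference was 0.08 beside 0.01 over all genes, and -0.02 without PBS replicate 1, so a difference between the classes was not shown.

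**Figure D5:**
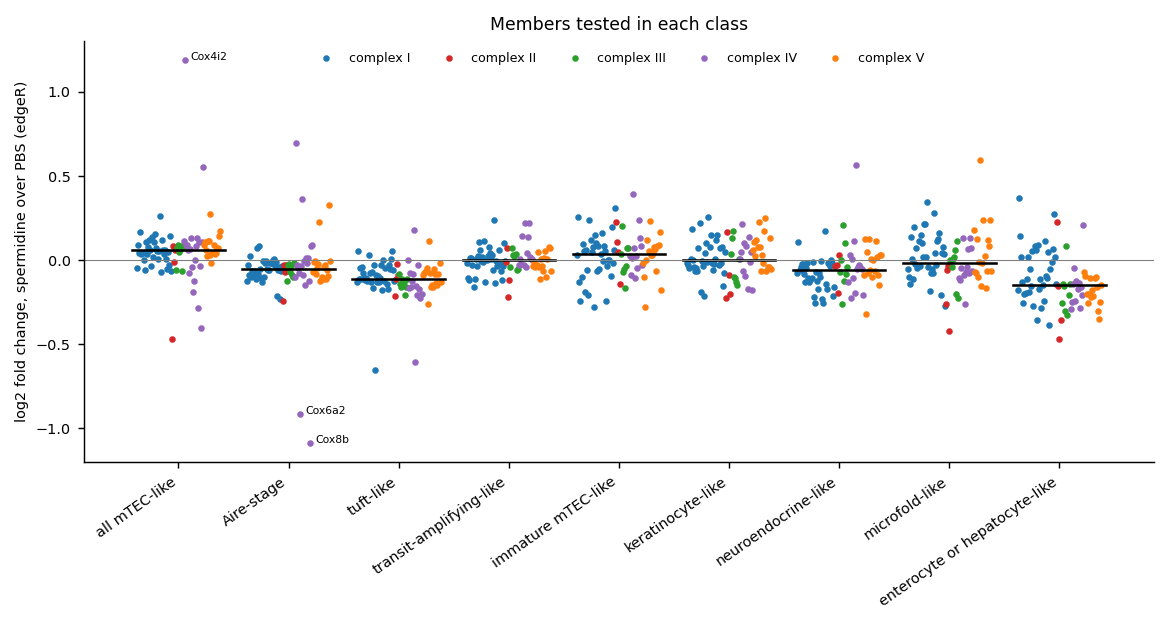
Log2 fold change of spermidine over PBS from edgeR (y axis) for each member tested, coloured by complex, in all mTEC-like cells and in 8 classes (x axis). Bars are medians over the members. The medians lie at -0.11 in tuft-like and -0.05 in Aire-stage cells and at 0.06 in all mTEC-like cells, and none of the points passes an adjusted p of 0.05.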

How the data were processed

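RNA and hashtag libraries of 4 hashed mTEC samples (2 PBS, 2 spermidine) from 1 run were used. The authors deposited raw UMI counts per gene and barcode, which Cell Ranger 7.1.0 made, per the file headers. Build mm10, bcl2fastq and Seurat are named in the submitters' processing notes. Hashtag reads are likewise counts, deposited for 15 hashtags, of which 4 belong to a sample and 11 columns without a sample were not used.

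Of 12139 barcodes, 8534 had at least 1000 UMIs, 500 genes and under 15% mitochondrial UMIs. HTODemux (Seurat 5.3.0, quantile 0.99) gave 4709 cells with 1 hashtag, 1027 hashtag doublets and 2798 negatives, both left out. No doublet caller was run on the RNA. With HT6 and HT7, which the labels tie to no sample, added, 1097 of these 4709 cells were not the same singlet, so their sample is in doubt. Cells were clustered in scanpy 1.11.5 (2000 variable genes without members or mt- genes, 30 components, 15 neighbours, Leiden resolution 1), giving 18 clusters, named from 21 marker lists. The naming rule was revised after the clusters, but not the treatment results, were seen. The members and lists were chosen with earlier results of these data known.

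Counts were summed per class and sample. Spermidine was tested against PBS with edgeR 4.0.16 (R 4.3.3, limma 3.58.1; TMM, filterByExpr with a minimum count of 10 and a total of 15) in classes with at least 20 cells in every sample, with Benjamini-Hochberg adjustment over all genes at 0.05. The steps were tested on simulated data. DESeq2 1.42.0 was an alternative, and others are listed with their effect below. Genes named in the text were in each direction the 3 of lowest p in the pooled, Aire-stage and tuft-like fits, a list of core subunits, tissue isoforms, the widest ratio of each complex, and the genes most like the members' sum. Others in a count of 6 or fewer, or with a large class difference, were named after their values were seen. Some genes that these rules name are not reported here. Gene positions come from GENCODE M21 (GRCm38) and upstream windows from RefSeq.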

Additional observations from a re-analysis of the deposited data

Results flagged for a closer look

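In a group of 4 samples a value was taken up here when its gap to the nearest other sample exceeded Dixon's 95% critical share of the group's range. Of 78 groups examined, 2 met this, and chance alone gives about 1 in 20. Complex I members in Aire-stage cells summed to 8117 CPM in PBS replicate 2, and the next sample stood at 7614 CPM. Complex IV members in myeloid-like cells, which are no mTECs and enter no comparison, summed to 7321 CPM in PBS replicate 2, with the next sample at 6602 CPM.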

How the results depend on the processing

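Of 131 alternatives for the count of members called, 122 gave 0, as did the replicate block in every class. In all mTEC-like cells DESeq2 called 1 member (Sdha) and no filter 2 (Sdha, Cox4i2), and leaving out a sample gave 0 to 1 (Sdha without PBS replicate 2, log2 fold change -0.55). With no filter tuft-like cells had 3 calls (Ndufa4l2, Atp5g1, Cox8a), transit-amplifying-like cells 1 (Ndufa4l2) and immature mTEC-like cells 2 (Cox6a2, Ndufa4l2). Leaving out a sample gave 0 to 1 in tuft-like cells (Ndufa4l2 without PBS replicate 1) and in immature mTEC-like cells (Ndufa4l2 without PBS replicate 2 or spermidine replicate 1, a gene with 35 of 38 UMIs there in 1 cell). Over all genes DESeq2 called 784 against 0 by edgeR in all mTEC-like cells, 70 against 0 in the Aire-stage class, 33 against 10 in tuft-like, 24 against 4 in transit-amplifying-like, 8 against 1 in microfold-like and 25 against 5 in enterocyte or hepatocyte-like cells.

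Replicate numbers did not pair the samples: same-numbered samples had correlations of deviations from -0.08 to 0.04. With the replicate block 110 genes were called in tuft-like cells and 28 in transit-amplifying-like cells, 0 of them members.

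The members' median fold change stayed below 0 in all 14 alternatives in tuft-like cells (-0.15 to -0.07) and in 13 of 14 in Aire-stage cells (-0.10 to 0.05, above 0 at Leiden resolution 0.5), and above 0 in all 14 in the pooled cells (0.0069 to 0.090). It changed sign among the alternatives in the transit-amplifying-like (-0.03 to 0.04), immature mTEC-like (-0.06 to 0.08), keratinocyte-like (-0.06 to 0.05), neuroendocrine-like (-0.10 to 0.01), microfold-like (-0.12 to 0.11) and enterocyte or hepatocyte-like (-0.31 to 0.01) classes. Of 252 alternatives for named members, 246 kept their direction. The exceptions were Cox4i2 in Aire-stage cells (-0.00068 by the margin rule for hashtags, -0.39 at Leiden resolution 0.5), Ndufs6 there (0.049 at Leiden resolution 0.5), and in tuft-like cells Atp5g2 (-0.025 by the margin rule), Ndufa10 (-0.043 without spermidine replicate 1, and up to 0.14 without another sample) and Ndufv1 (-0.037 with 6 hashtags). At Leiden resolution 0.5 the Aire-stage class held other cells. It was 1 cluster of 1322 cells, counted before hashtags were assigned. A cluster of 1778 cells stayed unnamed, with Klk1b11 and Fabp9 among its leading genes, as in the first Aire-stage cluster of the main clustering. The cause of the changes in direction was not tested.

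Of 103 log2 ratios to the Aire-stage class, 3 changed direction, all under TMM scaling: the summed members in muscle-like (-0.049) and ciliated-like cells (-0.20), and the mitochondrially encoded subunits in immature mTEC-like cells (-0.049). TMM scaling also moved the summed members to -0.42 in tuft-like, -0.67 in immature mTEC-like, -0.31 in microfold-like, -0.34 in keratinocyte-like and -0.65 in neuroendocrine-like cells, and in tuft-like cells complex II to 0.93 and Sdha to 2.23. A limit of 25% mitochondrial UMIs gave -0.33 for the tuft-like sum and 2.54 for Sdha. With 6 hashtags the sums were -0.54 in microfold-like and -0.27 in neuroendocrine-like cells. Leiden resolution 0.5 gave -0.20 for the neuroendocrine-like sum, 1.16 for tuft-like complex II, 2.58 for Sdha and 3.49 for Cox6b2 in ciliated-like cells. These ratios stand against the Aire-stage class of that resolution, which was 1 cluster only. This resolution was added for levels after the data were seen.

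Depth limits the isoforms: 3 UMIs, taken as the floor, are 2.66 CPM in the muscle-like and 1.84 CPM in the ciliated-like class, against 0.117 CPM in the Aire-stage class. Shares of cells cover counting error only. The 2 samples a group limit every test of treatment.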
